A study of Mus musculus with 4 samples.

Results

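The imprinted locus of H19 and Igf2 on distal chromosome 7 of the mouse was described from ATAC-seq peaks. ATAC-seq marks open chromatin by a transposase that inserts sequencing adaptors where the DNA is exposed. The locus was taken as everything within 100 kb of the transcription start sites (TSSs) of 5 genes, Tnnt3, Mrpl23, H19, Igf2 and Ins2, which is chr7:142398836-142843381 of mm10. Peaks of the 4 libraries that shared at least 1 bp were joined, and 47 of the 80380 regions obtained over the genome lay in the locus. They are called site01 to site47 here, numbered along the chromosome. The sites were selected by position, and the locus was chosen with its peak presence and ranks known, so both are given as a description and no test was made on them. With 2 libraries against 2, an exact two-sided permutation test could not give a p below 0.33 in any case.

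The libraries came from embryoid bodies (EBs), aggregates in which embryonic stem cells leave self-renewal and form early lineages, on day 4 of differentiation. WT EBs and CTCF-K20R EBs, both from the E14Tg2A line, had 2 libraries each. K20R cells carry an arginine in place of lysine 20 of CTCF, a zinc-finger protein that organises chromatin loops. The change was made by CRISPR/Cas9 in targeted colonies, and how many clones stand behind the libraries is not given in the sources used here. A peak list does not show the point mutation itself, so the genotype rests on the labels. The titles name K20R plainly, whereas the genotype field of those libraries also holds the word wild, and the groups were taken from the titles. The promoters of Pou5f1, T, Eomes, Mixl1 and Mesp1, genes of pluripotent cells and of the primitive streak and early mesoderm, had a peak in all 4 libraries. The lists held 59783 and 66703 peaks in WT and 51823 and 55832 in K20R, of which 33 and 37 in WT against 23 and 26 in K20R were in the locus. Read totals were not used here, and the median summit pileup at regions with a peak in all 4 libraries, recovered from the deposited fold and p, was 38 and 56 reads in WT against 39 and 58 in K20R, with replicate 2 the higher within each genotype.

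H19 is a non-coding RNA made from the maternal chromosome, and Igf2 encodes a fetal growth factor made from the paternal one. Between them lies the imprinting control region, a stretch upstream of H19 that binds CTCF when it is unmethylated, on the maternal copy, and there keeps Igf2 from enhancers on the far side of H19. On the methylated paternal copy CTCF does not bind and those enhancers reach Igf2. Ins2 encodes an insulin, Mrpl23 a protein of the mitochondrial ribosome and Tnnt3 the troponin T of fast skeletal muscle. In genome order the genes stand as Tnnt3, Mrpl23, H19, Igf2 and Ins2. H19 and Igf2 are both read towards Mrpl23, so the stretch between Mrpl23 and H19 is the downstream side of H19, where enhancers shared by H19 and Igf2 are known.

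Sequences are given for the places that the description turns on, all from GRCm38 (mm10). The control region was taken as the window from 1500 to 4500 bp upstream of the H19 TSS. It was searched for the core of its CTCF sites, a pattern of 14 letters with 2 free positions, on both strands. The window held 3 exact matches and 1 more match with 1 mismatch, G5A counted from 1 at the 5′ end of the core, and the whole 444.5 kb of the locus held no other match of either kind. All 4 were on the minus strand, the strand of H19, and each is printed on that strand with the core in capitals, core A at chr7:142580291-142580340, core B at chr7:142580746-142580795, core C, with the mismatch, at chr7:142581772-142581821 and core D at chr7:142582016-142582065.
Core A: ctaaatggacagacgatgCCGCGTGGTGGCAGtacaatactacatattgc
Core B: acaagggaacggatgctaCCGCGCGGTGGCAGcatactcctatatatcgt
Core C: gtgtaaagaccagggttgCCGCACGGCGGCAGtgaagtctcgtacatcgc
Core D: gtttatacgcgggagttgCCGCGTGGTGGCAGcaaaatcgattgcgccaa

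The 200 bases upstream of the H19 TSS are printed on the minus strand (chr7:142578144-142578343), with the 21 bases around the strongest ATAC-seq summit of the H19 promoter in capitals. The sites between Mrpl23 and H19 that had a peak in both WT lists and in neither K20R list, the similar site41 between Igf2 and Ins2, and the strongest site of the locus, site34, are printed on the plus strand as 141 bases around their strongest summit, again with the 21 bases at the summit in capitals. They cover chr7:142548909-142549049 for site24, chr7:142563136-142563276 for site27, chr7:142573160-142573300 for site28, chr7:142675756-142675896 for site41 and chr7:142611178-142611318 for site34.
H19 promoter, site30: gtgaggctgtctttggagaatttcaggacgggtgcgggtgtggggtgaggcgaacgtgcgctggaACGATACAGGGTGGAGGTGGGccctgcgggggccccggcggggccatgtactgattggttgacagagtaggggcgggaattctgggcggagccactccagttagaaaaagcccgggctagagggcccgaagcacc
site24: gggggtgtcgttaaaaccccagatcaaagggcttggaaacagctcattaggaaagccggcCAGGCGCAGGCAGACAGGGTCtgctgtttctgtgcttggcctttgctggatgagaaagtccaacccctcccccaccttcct
site27: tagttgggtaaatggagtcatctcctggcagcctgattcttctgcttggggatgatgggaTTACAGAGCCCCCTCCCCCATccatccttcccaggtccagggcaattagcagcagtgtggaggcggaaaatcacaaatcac
site28: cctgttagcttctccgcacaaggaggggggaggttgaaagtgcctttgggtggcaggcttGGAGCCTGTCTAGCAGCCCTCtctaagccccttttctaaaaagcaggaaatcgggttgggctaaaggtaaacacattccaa
site41: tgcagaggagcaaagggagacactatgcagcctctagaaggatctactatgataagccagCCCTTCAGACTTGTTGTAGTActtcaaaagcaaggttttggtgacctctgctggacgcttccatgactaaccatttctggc
site34: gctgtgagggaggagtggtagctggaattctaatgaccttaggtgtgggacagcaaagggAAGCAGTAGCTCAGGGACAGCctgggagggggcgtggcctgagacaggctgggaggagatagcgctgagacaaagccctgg

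Fewer sites of the locus had a peak in K20R than in WT EBs, and the largest difference of any stretch lay downstream of H19. Of the 47 sites, 32 and 37 had a peak in WT and 22 and 25 in K20R. The K20R mean was 0.681 of the WT mean (34.5 ± 3.54 in WT and 23.5 ± 2.12 in K20R, SD, n = 2), against 0.853 over all regions and 0.871 over the rest of chromosome 7. Between Mrpl23 and H19, a stretch of 34.8 kb, 5 and 5 sites had a peak in WT and 1 and 1 in K20R. In each WT library 1 of the 5 was a weak site without a peak in any other library. Within Tnnt3 and within Mrpl23, 2 sites each had a peak in all 4 libraries.

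**Figure D1:**
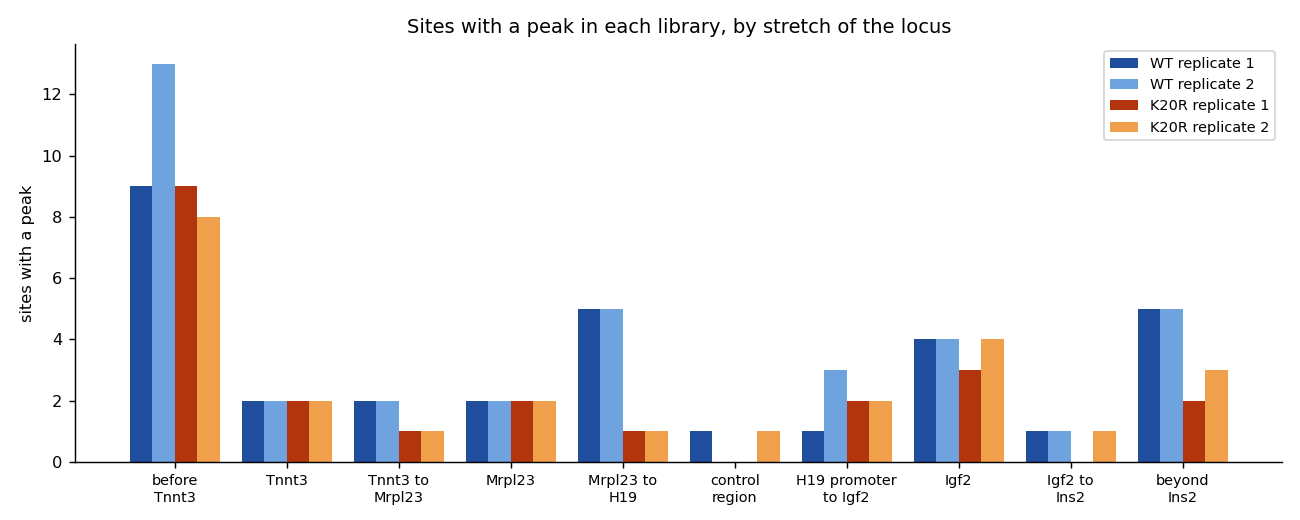
Number of sites with a peak (bars, y axis) in each of the 4 libraries for 10 stretches of the locus in genome order (x axis), with WT in blue and K20R in red and orange; the stretch beyond Ins2 starts at the short Ins2 transcript. Between Mrpl23 and H19 the WT libraries had 5 and 5 sites and the K20R libraries 1 and 1.

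Over the locus, 17 sites had a peak in all 4 libraries (36.2%, against 47.9% of all regions). A further 9 were WT-restricted, with a peak in both WT lists and in neither K20R list (19.1%, against 10.4% of all regions and 9.21% of chromosome 7 outside the locus). K20R-restricted sites, the opposite pattern, numbered 2 (4.26%, against 3.1%). Another 4 sites had a peak in both genotypes but not in all libraries (8.51%, against 16.2% of all regions). In a single library only, 15 sites had a peak (31.9%, against 22.4% of all regions), 8 of these in WT replicate 2. The single-library sites were weak, with 13 of 15 under the 20th percentile of their list. The WT lists were longer, and when every list was shortened to its 51823 strongest peaks, 5 WT-restricted sites were left of 35 sites, against 8.05% of all regions.

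Strength was followed as the percentile of a peak among the −log10 p values of its own list, where 100 is the strongest peak. All 9 WT-restricted sites lay in introns or between genes, 4 of them in introns, and their summit pileups ran from 12 to 45 reads. Of these, site21 reached to within 1000 bp of the Mrpl23 TSS and site36 to within 1000 bp of the Mir483 TSS. Peak numbers in the deposited lists have gaps, which shows that called peaks were taken out. At all 9 sites no number was missing between the neighbouring peaks of either K20R list, so that no call had been removed there, and this held for 29.0% of the WT-restricted regions of the genome.

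**Figure D2:**
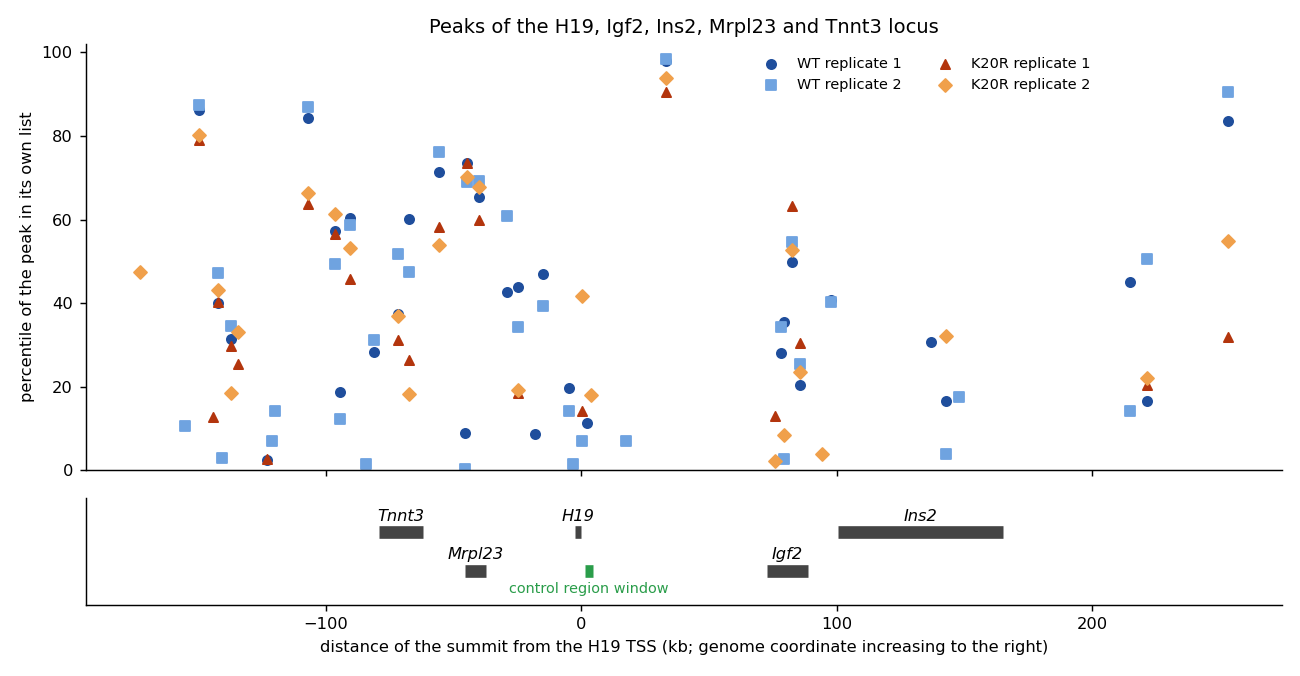
Percentile of every peak in its own list (y axis) against the distance of the site's summit from the H19 TSS in kb (x axis), for the 4 libraries, with the extents of the 5 genes and the window of the control region below. The strongest site, between H19 and Igf2, was at 97.8 and 98.4 in WT against 90.5 and 93.9 in K20R, and between Mrpl23 and H19 the K20R points stand at 1 position.

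Between Mrpl23 and H19, 3 of the 6 sites were WT-restricted and the one site with a peak in all 4 libraries was lower in K20R by percentile within the list, ranked anew and by relative pileup, but not when ranked by fold or with lists of equal length. At site24 (chr7:142548225-142549244), in an intron of the non-coding gene Nctc1 and 29164 bp downstream of the H19 TSS, the WT peaks stood at percentiles 42.7 and 60.8, with pileups of 24 and 45 reads. At site27 (chr7:142562820-142563596), which is intergenic and 14937 bp downstream of the H19 TSS, they stood at 47.0 and 39.4, with 25 and 31 reads. The intergenic site28 (chr7:142572630-142573421), 4913 bp downstream of the TSS, was weaker, with percentiles of 19.8 and 14.1 and pileups of 13 and 12 reads. Both stronger ones, site24 and site27, were thus in the middle of the WT lists, and they stayed WT-restricted at a −log10 q of at least 5 and with lists of equal length, while site28 did not.

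Of the remaining sites of this stretch, only site25 could be compared between the genotypes. The site with a peak in all 4 libraries, site25 (chr7:142552643-142553764, also in an intron of Nctc1, 24768 bp from the H19 TSS), was at 43.8 and 34.3 in WT against 18.5 and 19.2 in K20R. Its pileup was 26 and 30 reads in WT against 14 and 15 in K20R. Relative to each library's median over common regions, the pileup differed by -0.99 on the log2 scale (K20R minus WT), and the groups did not overlap. The last pair, site26 and site29, had a weak peak in one WT library each, at percentiles 8.60 and 1.40. Neither was repeated in the other WT library, so they give no direction. The promoter of Nctc1 itself had no peak in any list.

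**Figure D3:**
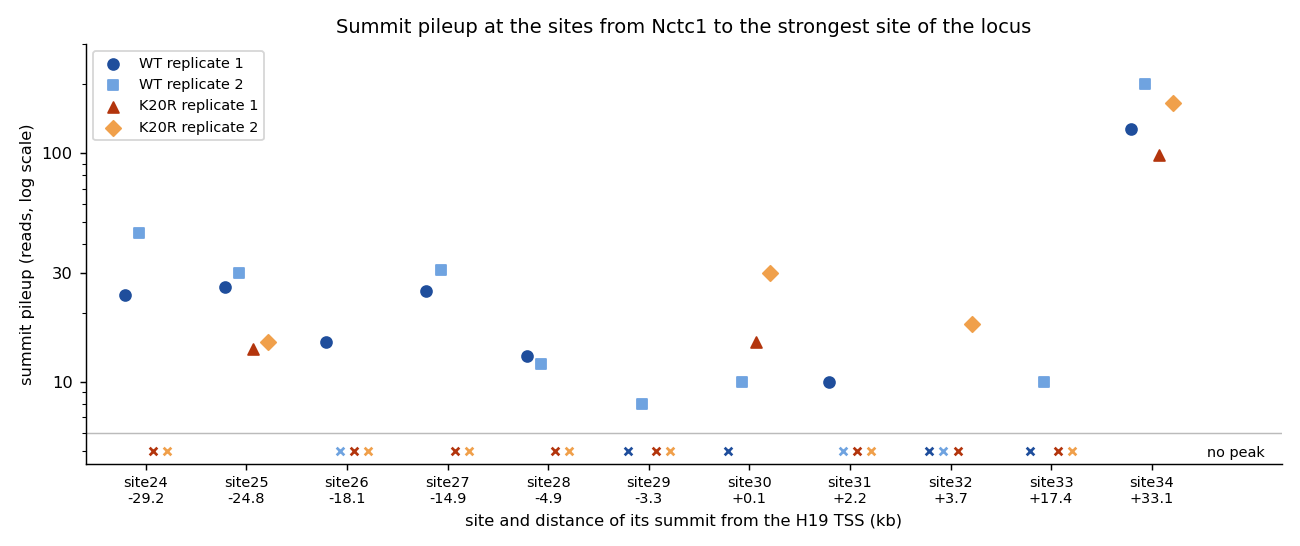
Summit pileup in reads (y axis, log scale) at the 11 sites from the Nctc1 intron to the strongest site of the locus, ordered by distance from the H19 TSS in kb (x axis), with crosses for libraries without a peak. WT pileups of 24 and 45 reads at site24 stand against no K20R peak, whereas at the H19 promoter, site30, K20R had 15 and 30 reads and WT none and 10.

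At the H19 promoter the order of the genotypes was the opposite. The peak of site30 (chr7:142577926-142578621), whose strongest summit was 125 bp upstream of the H19 TSS, was not listed in WT replicate 1 and stood at percentile 7.0 in WT replicate 2. It was at 14.1 and 41.6 in the K20R lists. Its pileup was 10 reads in WT replicate 2 and 15 and 30 in K20R, which is 0.179, 0.385 and 0.517 of each library's median. No peak number was missing at this place in WT replicate 1. All K20R values were above the one WT value, but replicate 2 also had the higher median summit pileup within each genotype. The part of this in the order was not tested. At a −log10 q of at least 5 only 1 library kept the peak.

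In the control region itself each peak was seen in a single library. Site31 (chr7:142580296-142580582) was in WT replicate 1 at percentile 11.4 with 10 reads, and it covered core A printed above, whose start lay 2166 bp upstream of the H19 TSS. Site32 (chr7:142581343-142582066) was in K20R replicate 2 at percentile 18 with 18 reads, and it covered core C and core D. Core B lay in no site. Neither peak was repeated in the other library of its genotype, so no difference between the genotypes could be read at the control region. At site31, 1, 2 and 0 peak numbers were missing in WT replicate 2 and the K20R lists. At site32, 0 and 1 were missing in WT and 2 in K20R replicate 1, so that a removed call is possible there. An imprinted region has one open and one closed copy, and the peak lists do not tell the copies apart.

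The strongest site of the locus lay between H19 and Igf2. At site34 (chr7:142610520-142611911, in an intron of the non-coding gene Gm33148, 33105 bp upstream of the H19 TSS) the percentiles were 97.8 and 98.4 in WT against 90.5 and 93.9 in K20R, and the pileups were 128, 201, 98 and 166 reads. The relative pileup differed by -0.37 on the log2 scale (K20R minus WT), with no overlap between the groups. It had a peak in all 4 libraries although the TSS of Gm33148 had none, and it held neither a CTCF consensus nor the core. Over the 72.6 kb from the H19 TSS to the near end of Igf2, the only further site besides the promoter and the control region was site33, in WT replicate 2 at percentile 7.0.

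Within Igf2 the peaks were weak to middling, and the genotypes overlapped at both sites shared by all libraries. The main site, site38 (chr7:142658751-142661257), extended over one annotated Igf2 start (142659489) and reached to within 1000 bp of another (142661305). Only WT replicate 2 had a single peak there. The other lists had a weaker peak over the first start and a separate, stronger one towards the second. The weaker peak was at 46.8 in WT replicate 1 and at 47.0 and 34.9 in K20R. By its strongest peak, site38 was at 49.8 and 54.6 in WT against 63.1 and 52.7 in K20R. The pileup of that peak was 42 and 64 reads in WT against 54 and 66 in K20R. The neighbouring site39 (chr7:142663879-142665391) was at 20.4 and 25.5 in WT against 30.5 and 23.6 in K20R. When the percentiles were taken anew among common regions only, both sites became higher in K20R, so their direction depends on the scale.

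The other Igf2 sites varied between libraries. At site37 (chr7:142657139-142657788), over a pair of annotated Igf2 starts (142657466 and 142657496), the peaks were at 35.4 and 2.70 in WT, not listed in K20R replicate 1 and at 8.41 in K20R replicate 2. Site36 (chr7:142655769-142656392, intron) was WT-restricted at 28.0 and 34.4 with 30 and 43 reads. Site35 (chr7:142653853-142654140, exon) was K20R-restricted at 12.9 and 2.19 with 17 and 15 reads, but 3 and 1 peak numbers were missing there in the WT lists. The outermost Igf2 start (142666816) had no peak. The local background that the caller used was high over Igf2, with a median of 11.4 reads over 18 peaks against 4.47 over the 101 other peaks of the locus, so the pileups of Igf2 peaks gave low folds.

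The Mrpl23 promoter had a peak of like rank in all 4 libraries. At site22 (chr7:142532778-142533912), over the Mrpl23 promoter, the percentiles were 73.6 and 69.0 in WT against 73.4 and 70.1 in K20R (71.3 ± 3.20 and 71.8 ± 2.35, SD, n = 2), a difference of 0.458 that was smaller than the spread between replicates. When the percentiles were taken anew among common regions, the difference was 5.84. Site23 (chr7:142537418-142538382), in an intron of Mrpl23, was at 65.4 and 69.1 in WT against 59.9 and 67.8 in K20R, and the groups overlapped. A weak WT-restricted peak, site21 (chr7:142532219-142532475), lay just before the gene at 8.84 and 0.342.

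Tnnt3 had no promoter peak at any of its annotated starts, and its 2 intronic sites were both lower in K20R by percentile. For site18 this did not hold at a −log10 q of at least 2, with lists of equal length or ranked by fold. At site18 (chr7:142505644-142506869) the percentiles were 37.3 and 51.8 in WT against 31.1 and 36.9 in K20R. At site19 (chr7:142510126-142510849) they were 60.1 and 47.4 in WT against 26.3 and 18.2 in K20R, with a difference in relative pileup of -0.93 on the log2 scale. Site18 is also within 1000 bp of the start of Prr33, which overlaps Tnnt3 on the other strand. Between Tnnt3 and Mrpl23, site20 (chr7:142522297-142523012) was at 71.4 and 76.2 in WT against 58.3 and 53.9 in K20R, again with no overlap.

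Ins2 had no peak at any annotated start in any library. The annotation gives Ins2 a long transcript that starts at 142743381, while the common short one starts at 142679726. With the short start, 44 sites remained in the locus. Between Igf2 and Ins2, site41 (chr7:142675432-142676125), 3900 bp downstream of the short start and past the 3′ end of the gene, was WT-restricted at 40.7 and 40.2, with pileups of 18 and 21 reads. The weak site40 was seen in K20R replicate 2 at percentile 3.93.

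Of the 17 sites with a peak in all 4 libraries, 10 had both K20R percentiles below both WT percentiles and 0 had both above (34.8% and 18.6% of all common regions). Ranked anew among common regions, 9 were lower and 4 higher (25.5% and 29.2% of all common regions). By relative pileup, 9 were lower and 1 higher (23.6% and 35.6% of all common regions). The same 9 sites were lower on all 3 scales (site07 was so by percentile alone), and the 4 common sites within Mrpl23 and Igf2 were not among them. The median difference in percentile was -8.94 over the 17 sites and -1.52 over all common regions, and the median log2 difference in relative pileup was -0.23 and 0.08.

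**Figure D4:**
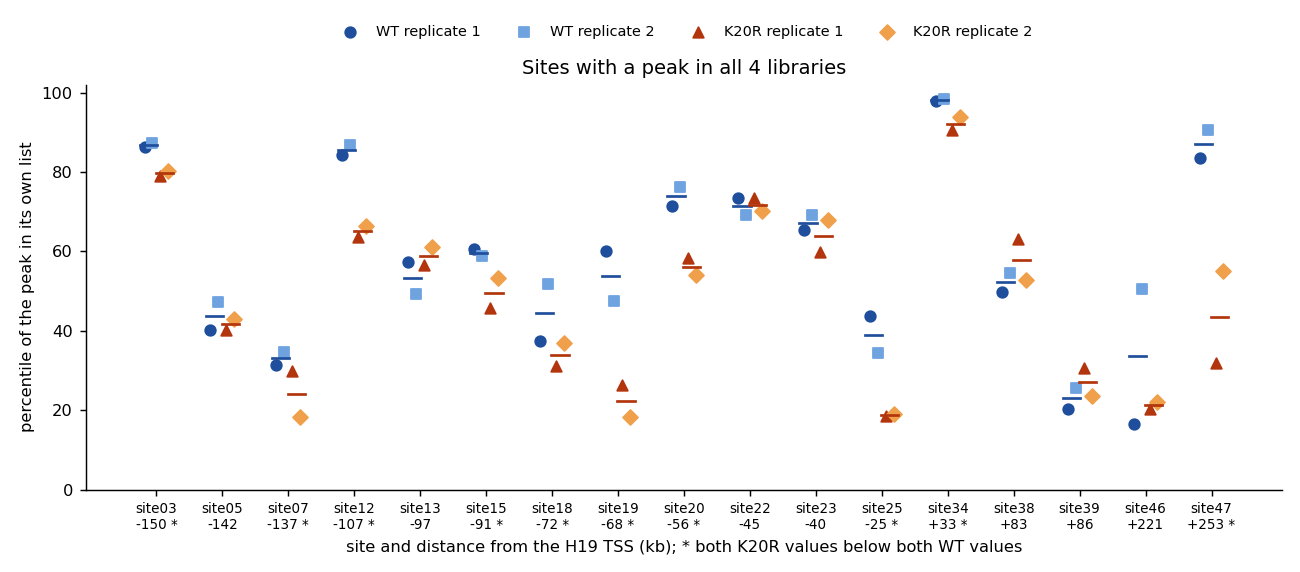
Percentile in its own list (y axis) of the peaks at the 17 sites with a peak in all 4 libraries, in genome order with the distance from the H19 TSS in kb (x axis); points are libraries, bars are means of 2 libraries, and an asterisk marks sites where K20R was below WT in all 4 pairs of libraries. This was so at 10 sites and at no site within Mrpl23 or Igf2.

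Among the common sites far from H19, the largest difference was at site47 (chr7:142830712-142831788, an exon of the non-coding gene Gm6471 and the last site of the locus), at 83.5 and 90.6 in WT against 31.9 and 55 in K20R. Its pileup was 49 and 96 reads in WT against 16 and 33 in K20R, a log2 difference in relative pileup of -1.62. Site12 (chr7:142470622-142472074), in an intron of Lsp1, a gene of leukocytes, was at 84.3 and 86.8 in WT against 63.7 and 66.4 in K20R, and its log2 difference in relative pileup was -0.94. Site03 (chr7:142428046-142428738) was at 86.3 and 87.3 in WT against 79.0 and 80.2 in K20R. These, with site34, were among the strongest sites of the locus, and all were lower in K20R on the 3 scales named, though site03 was not when ranked by fold. Site22 and site23 in Mrpl23 were no weaker than site47 by mean percentile over the libraries (71.5 and 65.6 against 65.2). Their groups overlapped on all 3 scales.

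Other genes with a TSS in the locus added few promoter peaks. Syt8, a synaptotagmin, had one in all 4 libraries (site05, at 40.1 and 47.3 in WT against 40.3 and 43.1 in K20R), and the groups overlapped. Ranked anew among common regions, site05 was higher in K20R (20.7 and 22.9 in WT against 24.9 and 23.6 in K20R). Tnni2, the troponin I of fast skeletal muscle, also had a promoter peak in all 4 libraries (site07, at 31.5 and 34.6 in WT against 29.8 and 18.4 in K20R). It was lower in K20R by percentile, but the groups overlapped by relative pileup. Lsp1 had no peak within 1000 bp of the 5′ end of the gene. The strongest summit of site12, however, lay 840 bp from an inner annotated Lsp1 start, which makes it a promoter peak there. An intronic site in Tnni2, site08 (chr7:142443445-142444043), was K20R-restricted at 25.4 and 33.0.

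The other WT-restricted sites were site14 (chr7:142483049-142483520), in an intron of Lsp1 at 18.8 and 12.2, and site17 (chr7:142496719-142497115), in an intron of Prr33 and 1780 bp before the Tnnt3 TSS, at 28.2 and 31.1. Beyond Ins2, site45 (chr7:142792810-142794090) was at 45 and 14.1. These were weaker than site24 in both WT lists, except that site45 exceeded it in WT replicate 1.

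The remaining common sites were site13 and site15, in introns of Lsp1, and site46. Site13 was at 57.3 and 49.3 in WT against 56.5 and 61.2 in K20R, with overlap between the groups. Site15 was at 60.5 and 58.7 in WT against 45.8 and 53.3 in K20R, with no overlap. It was not lower in K20R at a −log10 q of at least 5 or with lists of equal length. Beyond Ins2, site46 was at 16.6 and 50.6 in WT against 20.4 and 22.1 in K20R, and its WT values were the farthest apart of any common site. Site43, in an intron of the long Ins2 transcript, was at 16.6 and 3.83 in WT and at 32.0 in K20R replicate 2 alone. Site09 was at 2.34 in WT replicate 1 and at 2.65 in K20R replicate 1. Of the single-library sites not yet given, site42 was at 30.6 in WT replicate 1, site04 at 12.7 in K20R replicate 1, and site02, site06, site10, site11, site16 and site44 were in WT replicate 2 between 1.40 and 17.5.

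The first site inside the window, site01, was in K20R replicate 2 alone at 47.5, and the last was site47. Just outside, the region 5208 bp before the window was at 23.7 and 62.6 in WT against 45.6 and 48.0 in K20R. The region 7402 bp after it was at 38.4 and 35.3 in WT against 46.2 in K20R replicate 1.

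The 301 bases around each site's strongest summit were searched for motifs on both strands. None of the 47 sites held the CTCF consensus, which 6.22% of all regions did, and with 1 mismatch allowed 6 sites did (12.8%, against 21.2%). The core of the control region was within these bases at site31, and at 17 of all 80380 regions (0.0211%). The hexamer of ZFP57, TGCCGC, a protein that keeps imprints, occurred at 4 sites (8.51%, against 9.81%), which were site31 and site32 in the control region, the Mrpl23 promoter and site38 at Igf2. Of its 29 occurrences over the locus, 6 were in the window of the control region, and 4 of these overlapped a core by some of its letters.

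Motifs of factors of mesoderm and muscle were searched too. The TEAD motif CATTCC was at 12 sites (25.5%, against 17.0% of all regions). Of the 9 WT-restricted sites 4 held it (site24, site28, site36 and site45), against 19.2% of all WT-restricted regions. The single-library sites site01, site06, site10 and site11 held it too. The E-box CAGCTG was at 9 sites (19.1%, against 22.1%), and the AP-1 motif TGANTCA was at 6 (12.8%, against 9.81%). The GATA motif AGATAAG was at 3 sites (6.38%, against 3.86%), and the T-box motif was at 1 (2.13%, against 1.73%), the weak site26 downstream of H19. None of these shares was tested.

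Promoters of genes with related roles were set beside the locus. Of 14 imprinted neighbours further along distal chromosome 7, 11 had a promoter peak in all 4 libraries, 2 were lower in K20R (Tssc4 and Trpm5) and 1 was higher (Phlda2), against 32% and 16% of all protein-coding promoters with such peaks. Of 17 genes of the insulin-like growth factor system, 14 had one. Of these 4 were lower, the receptor Igf1r, the adaptor Irs1 and the RNA-binding proteins Igf2bp1 and Igf2bp3, and 3 were higher, the binding proteins Igfbp2, Igfbp3 and Igfbp4. Re-ranked among the protein-coding promoters with such peaks, a scale other than that of common regions used above, 2 were lower and 5 higher (23.1% and 23.8% of all such promoters). Of 8 genes for proteins that act at control regions, 3 had a promoter peak in all libraries, of which 0 were lower and 1, Ctcf, was higher. Zfp57 had one in WT replicate 2 alone, at percentile 87.7 with 99 reads. No genome-wide share stands beside 11 of 14, 14 of 17 and 3 of 8, so these cannot be called high or low. Only the 5′ end of each gene was searched and called peaks had been removed from the lists, so a missing peak does not show a closed promoter.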

How the data were processed

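ATAC-seq peak lists of 2 WT and 2 K20R libraries of day 4 EBs were used, one list per library. As the study's methods state, Trim_Galore trimmed the reads and bowtie2 aligned them to mm10. Duplicates, blacklisted reads and poorly mapped ones were discarded before MACS2 called the peaks. The deposited score is 10 times the −log10 p of the summit as a whole number, and the deposited ratio (fold) is that of summit pileup to local background, each plus 1. The authors also gave the summit's −log10 p and its −log10 q. The lists go down to a p of 0.01. Peak numbers have gaps, and called peaks were removed by a rule that is not given in the sources used here.

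Peaks sharing at least 1 bp were merged. A promoter peak lay within 1000 bp of a TSS of the GENCODE vM21 basic annotation, and sequences came from the GRCm38 genome (python 3.11.15, pandas 2.3.3, scipy 1.17.1, samtools 1.23.1). For the other genes of the locus and the genes of the lists, promoter peaks were searched at the 5′ end of the gene only. A site common to all libraries was lower (higher) where both K20R values lay below (above) both WT values. Pileup was recovered from fold and p, and was whole within 0.01 of −log10 p for at least 99.97% of the peaks of each list. The functions were tested on simulated lists.

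Members and lists were chosen with earlier results of these data known. Named were the 5 genes, other genes with a TSS in the locus, genotype-restricted sites, the strongest common sites and the control region; other sites and the genes of the lists were named for completeness. Alternatives were a larger overlap, q thresholds, equal list lengths, a 50 kb window, other ranks and leaving out each library. The pileup scale, the short Ins2 start and the mesoderm and muscle motifs were added after seeing the data.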

Additional observations from a re-analysis of the deposited data

How the results depend on the processing

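Peak presence depends on depth and on the caller's threshold, reads were not used here, and with 2 libraries a genotype the SD rests on 2 values. WT-restricted in every setting tried were site24, site27 and site41, and lower in K20R in every setting were site12, site20 and site34. Site47 was lower in every setting that kept it, and the 50 kb window and the short Ins2 start left it out by position. The cause of the changes below was not tested.

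With a −log10 q of at least 5, 11 sites had a peak in all libraries, 5 were WT-restricted, 0 were K20R-restricted, 5 common sites were lower and 2 were higher in K20R (over all regions 50.3%, 9.32%, 3.08%, 26.3% and 16.1%), and 1 library had an H19 promoter peak. With a −log10 q of at least 2, 1 of 39 sites was K20R-restricted (site08, against 3.16% of all regions). Within 50 kb of the TSSs 1 of 37 sites was (site35, against 3.10%). With lists shortened to equal length, strongest peaks kept, 5 sites were WT-restricted, 6 common sites were lower and 4 higher (over all regions 8.05%, 22.6% and 33.1%, where the balance of lower to higher is turned), and the Mrpl23 promoter differed by 5.78 percentile points (K20R minus WT). Ranked by fold, 7 common sites were lower and 3 higher (28.8% and 17.7% over all common regions), and that promoter differed by 5.23. Ranked anew among common regions, 4 were higher and it differed by 5.84. By relative pileup, 1 was higher. With 1 mismatch, 6 sites held the CTCF consensus.

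Leaving out 1 library gave 17 to 19 sites with a peak in all libraries (51.9% to 54.5% of all regions). WT-restricted sites then numbered 9 to 17 (17 without WT replicate 1, when 20.8% of all regions were so). K20R-restricted sites numbered 2 to 5 (5 without K20R replicate 1, against 8.05% of all regions). There were 10 to 13 lower common sites (42.8% to 51.2% of all common regions) and 2 to 4 higher ones (25.4% to 35.1%). The Mrpl23 difference ran from -1.80 to 2.72. The replicate numbers are shared by both genotypes, but nothing says that they pair the libraries. With the replicate block, that is K20R below WT of the same number in both pairs, 11 common sites were lower and 0 higher (42.8% and 24.7% of all common regions).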
